A study of Capra hircus with 10 samples.

Results

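The knockdown of the long noncoding RNA lncRNA55666 in goat mammary gland cells was set against cells that had received a different virus, to ask what distinguishes the knockdown from other virus-treated cultures. The comparison used 6 of the 10 libraries of the series, chosen by their labels: 2 of KD553 (genotype lncRNA55666 knockdown), 2 of Lv5NC (genotype 5NC) and 2 of OV55666 (genotype lncRNA55666 overexpression). The other 4 libraries, 2 of Lv3NC (genotype 3NC) and 2 of Blank (genotype control, no virus named), entered the same fit and are given beside the results. The labels do not define 5NC and 3NC, which are read here as control viruses, nor say which of them belongs to the knockdown. All cells were of the breed Lanshan dairy goat and were grown in 3D. The labels give no animal, age, virus dose or time after delivery, and the level of lncRNA55666 itself is not analysed here, so the knockdown is taken from its label.

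Long noncoding RNAs are transcripts without a protein product that can act on chromatin, on RNA stability or as scaffolds for proteins. A virus that delivers a construct into cultured cells can itself change expression, through RNA sensing, cytokine release and selection of cells, which is why a knockdown is read against cells that went through the same handling. The mammary gland holds a secretory epithelium and a stroma of fibroblasts. Those fibroblasts lay down collagens, small leucine-rich proteoglycans that bind collagen fibrils, and matricellular proteins that signal from the matrix.

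FPKM summed to between 440565 and 460423 per library, and between 10922 and 11163 genes reached 1 FPKM in a library; the depth in reads is unknown. The 2 libraries of a group correlated across genes at 0.990 to 0.994 (Pearson's r, log2 values). The labelled cell type is mammary gland cells, yet 14 of 17 luminal epithelial markers were below 1 FPKM in every library, with EPCAM and CDH1 at most 0.02 and 0.01. The rest were ESR1 at 5.15 to 12.03 FPKM, SPINT2 at 3.23 to 7.11 and CLDN4 at 0.26 to 1.04. All 12 fibroblast markers were tested, and their summed level was 22010 to 22240 FPKM in KD553 and 20450 to 23040 in the 4 Lv5NC and OV55666 libraries.

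KD553 differed from the Lv5NC and OV55666 libraries in 11 of 11340 genes tested, which is 0.0970% of them, with 6 higher (0.0529%) and 5 lower (0.0441%). The higher genes were the small heat shock protein gene HSPB6, the proteoglycan genes PRELP and OMD, the matricellular gene WISP2, the cholesterol hydroxylase gene CH25H and the homeobox gene MSX2. The lower genes were the translation termination factor gene GSPT1, the sphingosine phosphate receptor gene S1PR2, PDZD11, KCTD3 and MRGBP. In all 11 genes, neither KD553 value overlapped the 4 others, nor any of the 8 other libraries of the series. Over all tested genes, KD553 was clear of the 4 libraries in 22.1% (13.4% higher and 8.67% lower) and clear of all 8 in 9.74%. The test was limma on log2(FPKM + 1), with the Lv5NC and OV55666 means weighted equally. Calls needed a Benjamini-Hochberg adjusted p, taken over all tested genes, of less than 0.05. For the median gene the 95% interval was the log2 difference plus or minus 0.212. With the first or the second KD553 library left out limma called 0 genes (1256 and 634 at an unadjusted p under 0.05), without the first or the second Lv5NC library 1 and 3, and without the first or the second OV55666 library 2 and 1. Without the second Blank library the count was 17, of which 10 were among the 11.

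**Figure D1:**
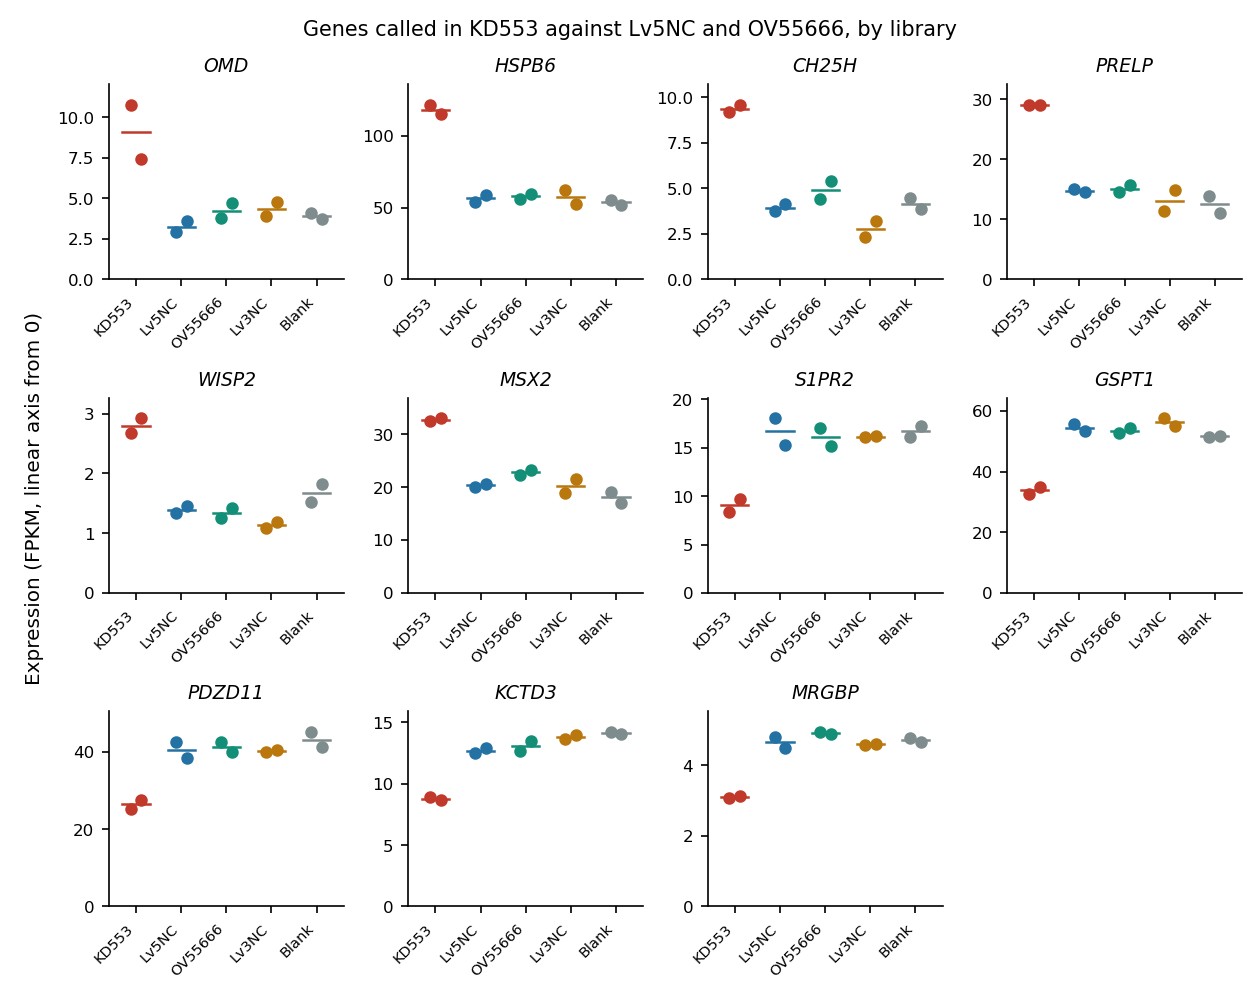
FPKM (linear axis from 0) of the 11 called genes in each of the 10 libraries, with a point for each library and a line at the mean of each group. Both KD553 points stand clear of the other 8 in every panel, above them in the first 6 panels and below them in the last 5.

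HSPB6 (gene 102172571) codes for a small heat shock protein known from muscle, where it binds unfolding proteins and actin regulators. It stood at 121 and 115 FPKM in KD553, against 53.7 and 58.9 in Lv5NC, 55.8 and 59.7 in OV55666, 62.0 and 52.4 in Lv3NC and 55.5 and 51.6 in Blank. The KD553 libraries were the 2 highest of the series and the other 8 lay close together. The gene rose 2.07-fold, from 57.0 ± 2.80 (SD, n = 4) to 118.1 ± 4.49 (SD, n = 2). On the log2 scale this was 1.04 ± 0.09 (SE, limma adjusted p = 0.00761). HSPB6 had the smallest p of all genes.

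The rest of the heat shock list gave no call. Of 22 tested members 12 were higher and 10 lower in KD553, with a median log2 difference of 0.06, where all tested genes had a median of 0.015 and 55.1% were higher. CRYAB, a small heat shock protein of the same family, was at 59.1 and 56.6 FPKM in KD553 against 68.3 to 77.1 in the 4 libraries (log2 −0.30, adjusted p = 0.407). HSP90AA1, the inducible cytosolic chaperone, was at 181 and 211 against 226 to 248 (log2 −0.25, adjusted p = 0.429). Neither passed the test. HSPB2, HSPB3 and HSPB8 were at most 0.79, 0.28 and 0.14 FPKM in any library and were not tested.

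PRELP (gene 102183894), a proteoglycan that anchors basement membranes to collagen, was at 29.0 and 29.0 FPKM in KD553, 15.1 and 14.5 in Lv5NC, 14.6 and 15.6 in OV55666, 11.5 and 14.8 in Lv3NC and 13.9 and 11.1 in Blank. Both KD553 values were far above every other library. PRELP rose 1.94-fold (log2 0.91 ± 0.11, SE, adjusted p = 0.0263). OMD (gene 102169007), a proteoglycan of bone and other collagen-rich tissue, was at 10.8 and 7.45 FPKM in KD553, 2.91 and 3.60 in Lv5NC, 3.78 and 4.69 in OV55666, 3.89 and 4.77 in Lv3NC and 4.10 and 3.72 in Blank. The KD553 libraries differed from each other by more than any other pair, and both were still the highest. OMD rose 2.43-fold (log2 1.08 ± 0.15, adjusted p = 0.0370). In the RefSeq gene table OMD overlaps CENPP, and whether the counting used strand is not given in the sources used here; CENPP was at 2.55 and 3.44 FPKM in KD553 and 2.50 to 3.96 in the 4 libraries, which overlap.

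WISP2 (gene 102184354), a secreted member of the CCN family of matricellular proteins, was near the floor of the table, at 2.68 and 2.92 FPKM in KD553, 1.34 and 1.45 in Lv5NC, 1.26 and 1.42 in OV55666, 1.09 and 1.18 in Lv3NC and 1.53 and 1.82 in Blank. The KD553 values were again the highest. It rose 2.05-fold in FPKM, and by less on the log2(FPKM + 1) scale (0.68 ± 0.09, SE, adjusted p = 0.0364). With a pseudocount of 0.1 its log2 change was 0.98 and it did not pass.

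CH25H (gene 102191759) codes for the enzyme that adds a hydroxyl group to the side chain of cholesterol, giving an oxysterol that holds back sterol synthesis and acts in antiviral defence. It was at 9.18 and 9.58 FPKM in KD553, 3.78 and 4.12 in Lv5NC, 4.43 and 5.39 in OV55666, 2.33 and 3.20 in Lv3NC and 4.45 and 3.89 in Blank. The KD553 libraries were the highest and the Lv3NC libraries the lowest. CH25H rose 2.12-fold against the 4 libraries (log2 0.94 ± 0.11, SE, adjusted p = 0.0263). Its log2 difference from Lv3NC was 1.47 ± 0.13 (adjusted p = 0.0100).

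MSX2 (gene 102169797), a homeobox transcription factor that acts downstream of bone morphogenetic proteins in embryonic mammary mesenchyme, was at 32.4 and 32.9 FPKM in KD553, 20.1 and 20.7 in Lv5NC, 22.3 and 23.2 in OV55666, 18.8 and 21.6 in Lv3NC and 19.1 and 17.0 in Blank. It rose 1.51-fold (log2 0.58 ± 0.08, SE, adjusted p = 0.0364). In the list of mammary mesenchyme genes it was the 1 of 14 tested members called, with 8 higher, 6 lower and a median of 0.03. BMP4, a ligand upstream of MSX2, was at 9.36 and 10.5 FPKM in KD553 and 5.67 to 6.40 in the 4 libraries (log2 0.65 ± 0.13, SE, adjusted p = 0.191), clear of all 8 others but not past the test. Leaving out the second Blank library, a choice made after seeing the data, did not alter this log2 difference, since Blank is not in the contrast. That choice changed the estimate of spread and with it the adjusted p, so the unchanged difference says nothing about the call. MSX1 and TBX3, transcription factors of the same tissue named after their values were seen, overlapped the 4 libraries.

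GSPT1 (gene 102169540) had the smallest p among the lower genes. Its product is the GTPase that works with ETF1 to release a finished protein from the ribosome. GSPT1 was at 32.7 and 35.0 FPKM in KD553, 55.6 and 53.3 in Lv5NC, 52.8 and 54.2 in OV55666, 57.5 and 54.9 in Lv3NC and 51.5 and 51.8 in Blank. The other 8 libraries stayed within a narrow band and both KD553 libraries lay well under it. GSPT1 fell to 62.7% of the level in the 4 libraries (log2 −0.66 ± 0.06, SE, adjusted p = 0.0144).

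No other gene of the translation list was called. Of its 30 tested members 24 were higher in KD553 and 6 lower, with a median of 0.07. Its partner ETF1 was at 38.5 and 41.2 FPKM in KD553 and 38.8 to 40.4 in the 4 libraries, and its paralog GSPT2 at 3.08 and 2.75 against 2.55 to 2.90; both were named after their values were seen. Reads that the copies share may be split between GSPT1 and GSPT2, and how the counting did so is not given in the sources used here. EIF2S3, a subunit of the factor that brings the initiator tRNA, was at 52.2 and 61.7 against 44.5 to 51.5 (adjusted p = 0.456), and EIF2B1, a subunit of its exchange factor, at 13.2 and 15.1 against 11.1 to 12.6 (adjusted p = 0.469).

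S1PR2 (gene 102180585), a receptor for sphingosine phosphate at the cell surface, was at 8.35 and 9.74 FPKM in KD553, 18.0 and 15.3 in Lv5NC, 17.1 and 15.2 in OV55666, 16.1 and 16.2 in Lv3NC and 16.1 and 17.2 in Blank. The other 8 libraries were alike, with or without a virus, and both KD553 libraries were lower. S1PR2 fell to 55.2% of the level in the 4 libraries (log2 −0.79 ± 0.09, SE, adjusted p = 0.0263). SPHK1, the kinase that makes sphingosine phosphate, was at 30.6 and 27.6 FPKM in KD553 and 35.1 to 39.7 in the 4 libraries (log2 −0.31, adjusted p = 0.279), below all 8 others without passing the test. PLPP3, a phosphatase that degrades lipid phosphates, was at 20.3 and 20.9 against 21.5 to 27.0 (adjusted p = 0.595). Of the 10 tested genes of this list 5 were higher and 5 lower (median −0.09).

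The other 3 lower genes had smaller changes. PDZD11 (gene 102174918), a small PDZ domain protein that binds membrane transporters, was at 25.3 and 27.6 FPKM in KD553, 42.7 and 38.4 in Lv5NC, 42.5 and 39.8 in OV55666, 40.1 and 40.6 in Lv3NC and 45.1 and 41.2 in Blank (log2 −0.61 ± 0.08, SE, adjusted p = 0.0325). KCTD3 (gene 102173767), which carries a BTB domain, was at 8.89 and 8.67 in KD553, 12.5 and 12.9 in Lv5NC, 12.6 and 13.5 in OV55666, 13.7 and 13.9 in Lv3NC and 14.2 and 14.0 in Blank (log2 −0.50 ± 0.06, adjusted p = 0.0263). Both genes were lowest in KD553. MRGBP (gene 102189113), a subunit of a histone acetyltransferase complex, was at 3.06 and 3.12 in KD553, 4.81 and 4.49 in Lv5NC, 4.94 and 4.89 in OV55666, 4.58 and 4.6 in Lv3NC and 4.78 and 4.65 in Blank (log2 −0.50 ± 0.07, adjusted p = 0.0370). MRGBP too was lowest in KD553, and in KCTD3 the Blank libraries were the highest.

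**Figure D2:**
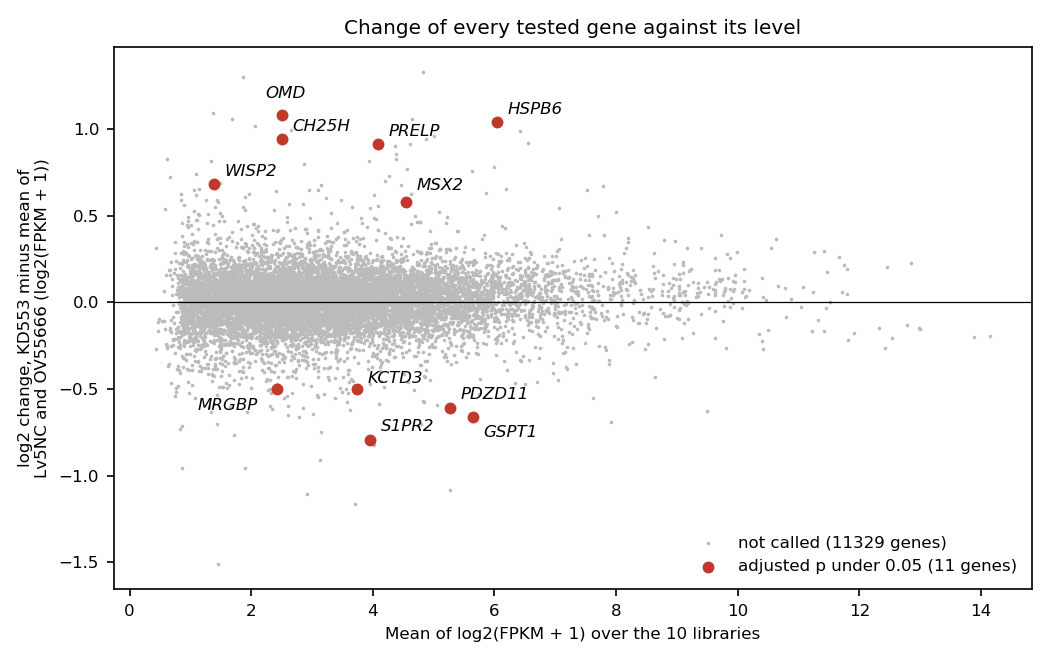
Log2 change in KD553 against the mean of Lv5NC and OV55666 (vertical axis, log2(FPKM + 1)) for each of the 11340 tested genes, by its mean log2 level over the 10 libraries (horizontal axis). The 11 called genes are in red, with HSPB6 at 1.04 and S1PR2 at −0.79, and several uncalled genes in grey lie farther from 0 than the called ones.

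The size of a change did not by itself decide the calls. A log2 difference of at least 0.5 was measured in 78 genes higher and 60 lower, and of at least 1 in 8 higher and 4 lower, of which OMD and HSPB6 were called. The rule for naming genes wanted at least 8 in each direction. It added the next by p among genes with a mean of at least 2 FPKM in the higher group, which left out DPP4 (limma adjusted p = 0.0772). THY1, a surface glycoprotein of fibroblasts, was at 181 and 165 FPKM in KD553 against 107 to 125 in the 4 libraries (log2 0.54 ± 0.09, SE, adjusted p = 0.0955), and NID1, which links laminin to collagen in basement membranes, at 90.3 and 87.9 against 61.7 to 67.8 (log2 0.44 ± 0.07, adjusted p = 0.0955). Both were above all 8 other libraries. KIF1C, a kinesin motor, was at 22.4 and 20.9 against 28.6 to 31.2 (log2 −0.43 ± 0.07, adjusted p = 0.0955). SHC2, an adaptor of receptor tyrosine kinases, was at 5.24 and 4.63 against 7.29 to 8.11 (log2 −0.55 ± 0.09, adjusted p = 0.126), and DUSP8, a phosphatase of stress-activated kinases, at 1.76 and 1.79 against 2.62 to 3.26 (log2 −0.47 ± 0.08, adjusted p = 0.126). These 5 genes were not called; with Lv5NC and OV55666 treated as 1 group of 4 libraries THY1, NID1 and KIF1C passed, with adjusted p of 0.0402, 0.0391 and 0.0391.

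The 2 arms of the pool were compared with each other and with KD553 in turn. OV55666 differed from Lv5NC in 0 genes by limma, with 166 genes (1.46%) at an unadjusted p under 0.05. Against Lv5NC alone KD553 differed in HSPB6 and GSPT1 (0.0176% of genes), and against OV55666 alone in HSPB6 (0.00882%). These comparisons share the KD553 libraries and each has 2 libraries a side. HSPB6 was higher by log2 1.06 ± 0.10 (SE) against Lv5NC and 1.02 ± 0.10 against OV55666, and GSPT1 was lower by log2 −0.67 ± 0.07 and −0.65 ± 0.07. Among the 11 genes the 2 values lay farthest apart in OMD, at 1.23 ± 0.17 and 0.93 ± 0.17, and in CH25H, at 1.07 ± 0.13 and 0.82 ± 0.13.

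Lv3NC, the other control virus, was set against the same 4 libraries. It differed from them in 0 genes by limma, with 375 genes (3.31%) at an unadjusted p under 0.05, where KD553 had 1053 (9.29%). For the called genes the log2 differences of Lv3NC from the 4 libraries were 0.00 for HSPB6, 0.06 for GSPT1, −0.02 for S1PR2, 0.09 for KCTD3, −0.02 for PDZD11, −0.05 for MRGBP, −0.09 for MSX2, −0.15 for WISP2, −0.18 for PRELP, 0.18 for OMD and −0.53 for CH25H. Both Lv3NC libraries were outside the range of the 4 in 3 of the 11 genes, where over all tested genes this held for 15.5%. The difference between these departures is KD553 against Lv3NC, in which limma called 8 genes (0.0705%), all of them among the 11. OMD, PDZD11 and MRGBP did not pass there (adjusted p = 0.150, 0.101 and 0.150), with log2 differences of 0.91 ± 0.17, −0.59 ± 0.09 and −0.45 ± 0.08 (SE). Against Blank all 11 passed, where 286 genes (2.52%) did. Both comparisons share the KD553 libraries and the estimate of spread with the one that picked the 11 genes. Passing in them is therefore partly built in and is not separate evidence. In a limma fit of KD553 and Lv3NC alone 0 genes were called, with 859 at an unadjusted p under 0.05.

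**Figure D3:**
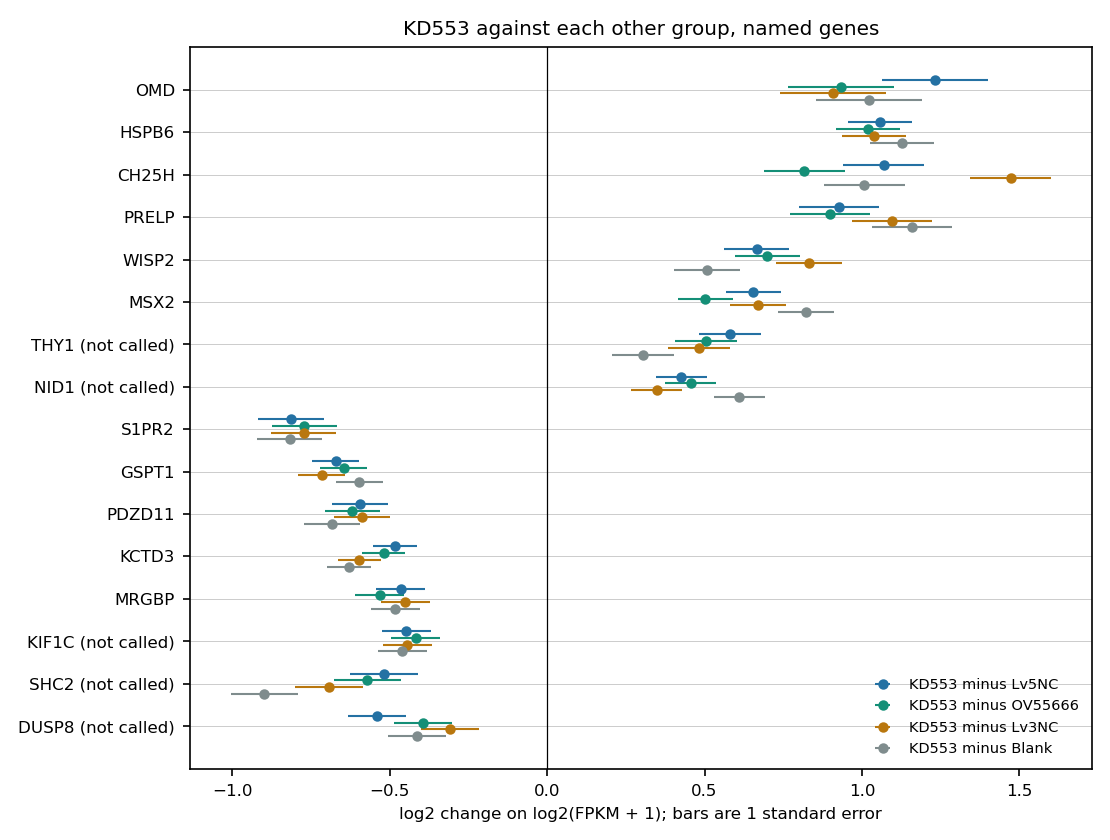
Log2 change in KD553 (horizontal axis, log2(FPKM + 1), bars of 1 SE) against each of the other 4 groups, for the 11 called genes and the 5 added by the naming rule. For every gene the 4 points lie on the same side of 0; the points of 1 gene share the KD553 libraries. CH25H runs from 0.82 against OV55666 to 1.47 against Lv3NC.

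Of 19 tested small leucine-rich proteoglycans and matrix glycoproteins 13 were higher in KD553 and 6 lower, with a median log2 difference of 0.05; PRELP and OMD were called. OGN, a proteoglycan related to OMD, was at 35.1 and 21.1 FPKM in KD553 and 8.65 to 18.3 in the 4 libraries (log2 0.85 ± 0.29, SE, adjusted p = 0.433), but at 31.3 and 41.1 in Blank. DCN and LUM, the proteoglycans with the highest FPKM in the list and named after their values were seen, overlapped the 4 libraries, with log2 differences of −0.02 and 0.02. Libraries made from bulk RNA cannot tell more cells of a type from more RNA per cell.

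Of 18 collagen genes 12 were lower in KD553 and 6 higher, with a median of −0.12 and 0 called. COL8A1, a short-chain collagen, was at 65.3 and 46.7 FPKM in KD553 against 24.7 to 31.6 in the 4 libraries (log2 0.96 ± 0.16, SE, adjusted p = 0.126), above all 8 others. COL11A1, a fibrillar collagen, was at 88.8 and 85.1 against 44.2 to 55.7 (log2 0.78 ± 0.18, adjusted p = 0.256), while the Blank libraries had 59.5 and 101. Leaving out the second of them, a choice made after seeing the data, did not alter this log2 difference, since Blank is not in the contrast. The estimate of spread and with it the adjusted p did change, so the unchanged difference says nothing about the call. COL16A1, which associates with fibrils, was at 67.2 and 53.03 against 72.1 to 81.6 (log2 −0.34 ± 0.10, adjusted p = 0.307). The KD553 libraries differed in this list, with medians of 0.01 and −0.26 against the mean of the 4 libraries.

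In the CCN family 3 of 5 tested genes were higher, all 3 clear of the 4 libraries (13.4% of all tested genes were), and WISP2 was called. CYR61 was at 317 and 357 FPKM in KD553 against 206 to 265 (log2 0.52 ± 0.11, SE, adjusted p = 0.203), and CTGF at 219 and 246 against 136 to 155 (log2 0.65 ± 0.23, adjusted p = 0.455). Both are targets of mechanical signalling through YAP. CTGF was at 329 in 1 Blank library. Leaving that library out, a choice made after seeing the data, kept the log2 difference at 0.65. Blank is not in the contrast, so only the estimate of spread, and with it the adjusted p, changed. The unchanged difference therefore says nothing about the call. The list had a median of 0.52.

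Smooth muscle contractile genes were higher in 14 of 15 tested members, with a median of 0.18 and 0 called, where 55.1% of all tested genes were higher. Clear above the 4 libraries were 6 members, as were 13.4% of all tested genes. TGFB1I1, a focal adhesion protein, was at 70.2 and 73.3 FPKM in KD553 against 56.3 to 61.2 (adjusted p = 0.357), SYNPO2 at 7.10 and 6.36 against 3.57 to 5.28 (adjusted p = 0.461) and the tropomyosin gene TPM1 at 421 and 464 against 297 to 379 (adjusted p = 0.526). All 3 were as high or higher in the second Blank library, at 76.2, 9.49 and 578 FPKM. The list medians of the KD553 libraries were 0.18 and 0.19, and that of the second Blank library was 0.72. Of the pericyte markers, which share PDGFRB with the fibroblast list, 5 of 5 tested were lower (median −0.32), with CSPG4 at 22.4 and 22.4 FPKM against 26.3 to 34.5 (adjusted p = 0.431); RGS5, a defining marker, was at most 0.09 FPKM in any library. The summed pericyte markers were 76.1 to 101.8 FPKM in KD553 and 98.6 to 110.1 in the 4 libraries. Their part in the matrix and contractile values was not tested.

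**Figure D4:**
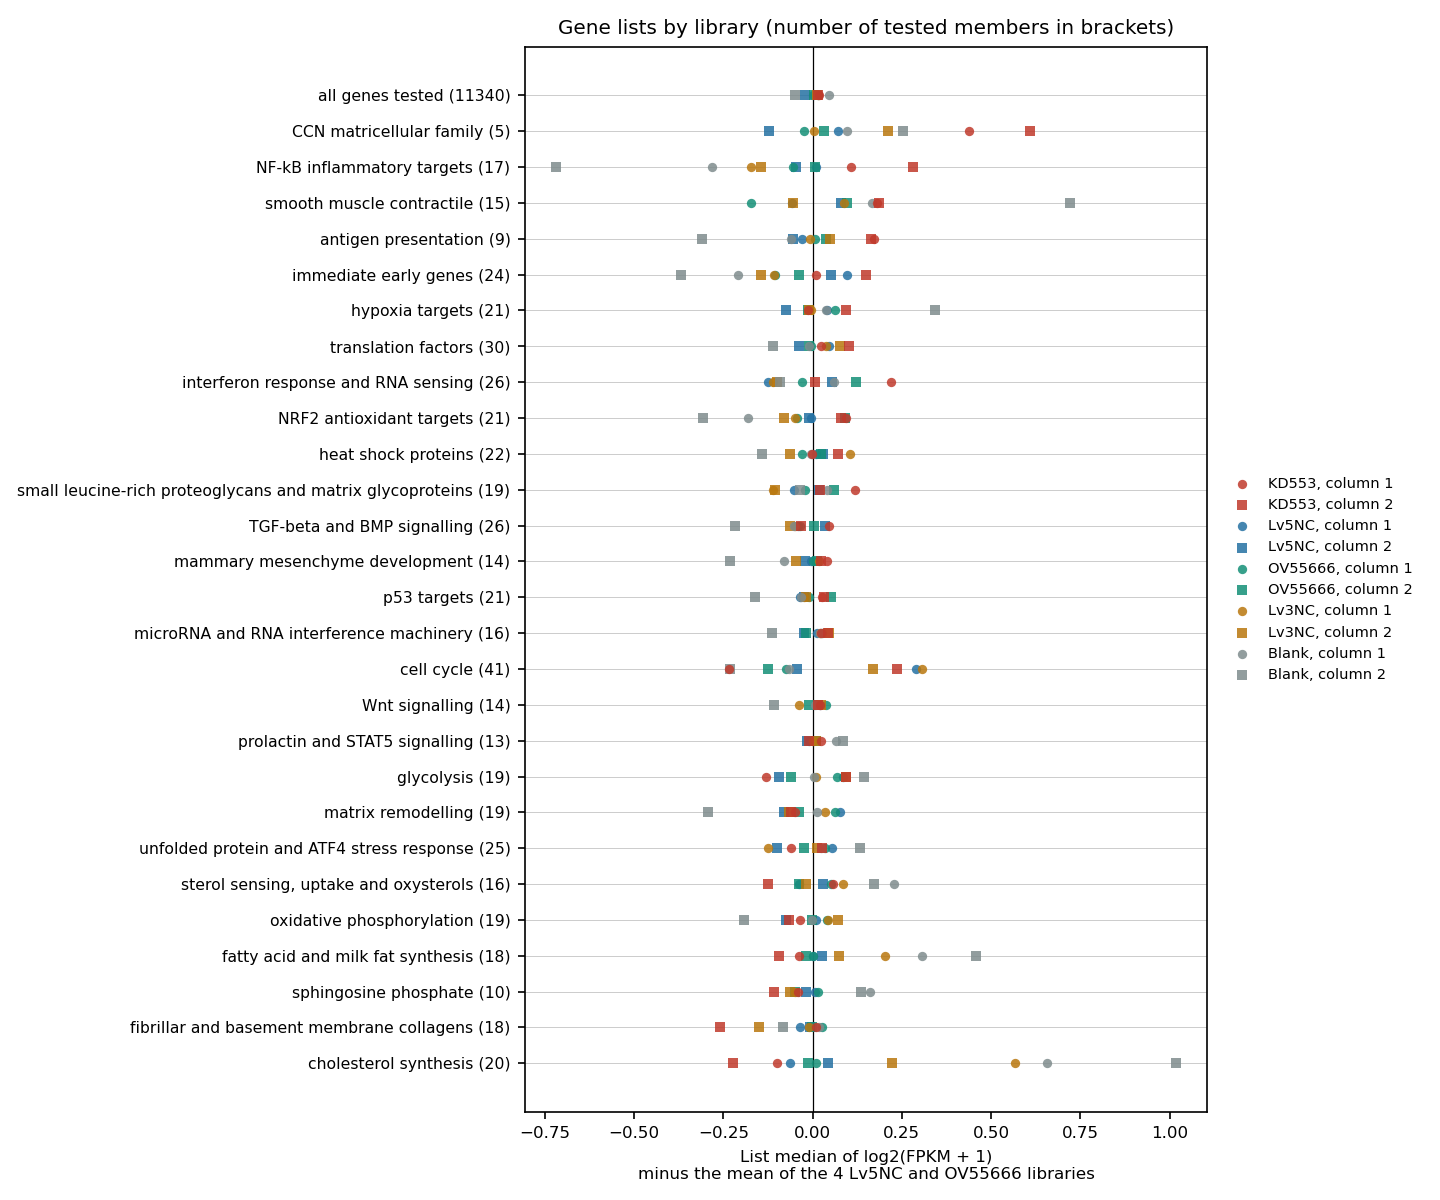
For each pathway list (tested members in brackets), the median over its members of log2(FPKM + 1) minus the mean of the 4 Lv5NC and OV55666 libraries, with a point for each library. The 2 KD553 points lie to the right of the 4 libraries for the CCN family, NF-kB targets, smooth muscle contractile genes and antigen presentation. By a small margin they also do so for the mammary mesenchyme list. They lie to the left for cholesterol synthesis and for fatty acid and milk fat synthesis. In these 2 lists the Lv3NC and Blank points lie to the right. For the cell cycle the KD553 points fall on both sides.

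Inflammatory targets of NF-kB, the transcription factor that drives cytokine genes, were higher in 13 of 17 tested members, with a median of 0.20 and 0 called, where 55.1% of all tested genes were higher. Clear of the 4 libraries were 6 members above and 0 below (13.4% and 8.67% of all tested genes). IL6, a cytokine of fibroblasts and other cells, was at 3.53 and 5.83 FPKM in KD553, 2.20 and 1.26 in Lv5NC, 1.71 and 1.35 in OV55666, 0.74 and 1.5 in Lv3NC and 0.33 and 0.58 in Blank (log2 1.09 ± 0.22, SE, adjusted p = 0.195). The chemokine CXCL8 was at 5.97 and 14.1 in KD553, 5.02 and 3.42 in Lv5NC, 3.88 and 4.07 in OV55666, 2.03 and 2.89 in Lv3NC and 0.84 and 0.10 in Blank (log2 1.02 ± 0.33, adjusted p = 0.414). Blank was lowest and KD553 highest for both cytokines. ICAM1, an adhesion molecule for leukocytes, was at 2.24 and 1.67 against 0.79 to 0.92 (log2 0.65 ± 0.14, adjusted p = 0.203). The list medians of the KD553 libraries were 0.11 and 0.28, those of Lv3NC −0.17 and −0.15 and those of Blank −0.28 and −0.72. Among 12 leukocyte markers, 10 stayed under 1 FPKM throughout, with PTPRC at most 0.01. The list summed to 29.5 to 36.5 FPKM in KD553 and 33.6 to 39.4 in the 4 libraries. This sum was carried by CD14, at 16.9 to 37.2 FPKM over the 10 libraries, with CD68 at 1.00 to 2.33. The part of leukocytes in the cytokine values was not tested.

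Interferon response and RNA sensing genes were higher in 18 of 26 tested members, with a median of 0.07 and 0 called. The KD553 libraries differed, with list medians of 0.22 and 0.01, and 1 OV55666 library was at 0.12. EIF2AK2, the kinase activated by double-stranded RNA, was at 7.77 and 8.35 FPKM in KD553 against 6.01 to 6.57 (log2 0.29 ± 0.10, SE, adjusted p = 0.427), PSMB8, an immunoproteasome subunit, at 4.72 and 3.53 against 2.74 to 3.47 (adjusted p = 0.427) and IRF1 at 2.96 and 2.57 against 2.01 to 2.50 (adjusted p = 0.503). Antigen presentation genes were higher in 8 of 9 (median 0.12, 0 called), with B2M, the light chain of class I molecules, at 307 and 314 FPKM against 249 to 283 (adjusted p = 0.493) and TAPBP at 66.9 and 75.1 against 56.5 to 63.2 (adjusted p = 0.459). Genes of the microRNA and RNA interference machinery, through which a short hairpin or other small RNA acts, were higher in 11 of 16 with a median of 0.02 and 0 called. AGO1, DROSHA and SND1 were above the 4 libraries by log2 0.13, 0.14 and 0.08 (adjusted p = 0.660, 0.691 and 0.773).

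Cholesterol synthesis genes were lower in 17 of 20 tested members, with a median of −0.15 and 0 called. Clear of the 4 libraries were 9 members below and 1 above, where 8.67% and 13.4% of all tested genes were. MVK, a kinase of the mevalonate pathway, was at 4.03 and 3.99 FPKM in KD553, 5.37 and 4.84 in Lv5NC, 5.05 and 4.75 in OV55666, 7.37 and 6.30 in Lv3NC and 7.51 and 9.28 in Blank (log2 −0.26 ± 0.10, SE, adjusted p = 0.450). FDPS, which makes farnesyl diphosphate, was at 24.1 and 23.7 against 28.4 to 32.7 (log2 −0.31 ± 0.13, adjusted p = 0.504) and GGPS1 at 8.54 and 7.74 against 8.99 to 9.77 (adjusted p = 0.503). HMGCS1, the synthase of the pathway with the highest FPKM, was at 31.3 and 28.0 FPKM against 35.3 to 39.1 (log2 −0.31 ± 0.15, adjusted p = 0.556). Measured against the same 4 libraries, the Lv3NC list median was 0.38, and KD553 against Lv3NC had a median of −0.55; the comparisons share libraries. The list medians of the 2 Blank libraries were 0.66 and 1.02.

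In the list of sterol sensing, uptake and oxysterols, CH25H was called higher and S1PR2, which also binds bile acids, lower. ABCA1, the pump that exports cholesterol, was at 7.51 and 6.13 FPKM in KD553, 9.46 and 11.3 in Lv5NC, 14.1 and 9.59 in OV55666, 15.95 and 12.9 in Lv3NC and 14.4 and 16.3 in Blank. Both KD553 libraries were lowest, and the difference did not pass (log2 −0.62 ± 0.16, SE, adjusted p = 0.272). The list had 6 of 16 members higher and a median of −0.05. Of 18 tested fatty acid and milk fat genes 12 were lower (median −0.08, 0 called). ELOVL5, a fatty acid elongase, was at 36.4 and 36.0 FPKM against 31.1 to 33.0 (adjusted p = 0.409), and PLIN2 and DGAT1 overlapped the 4 libraries. EBP and ACAT2 of the synthesis list were at 23.5 and 21.4 against 23.2 to 25.8 and at 15.1 and 14.2 against 14.96 to 17.8.

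**Figure D5:**
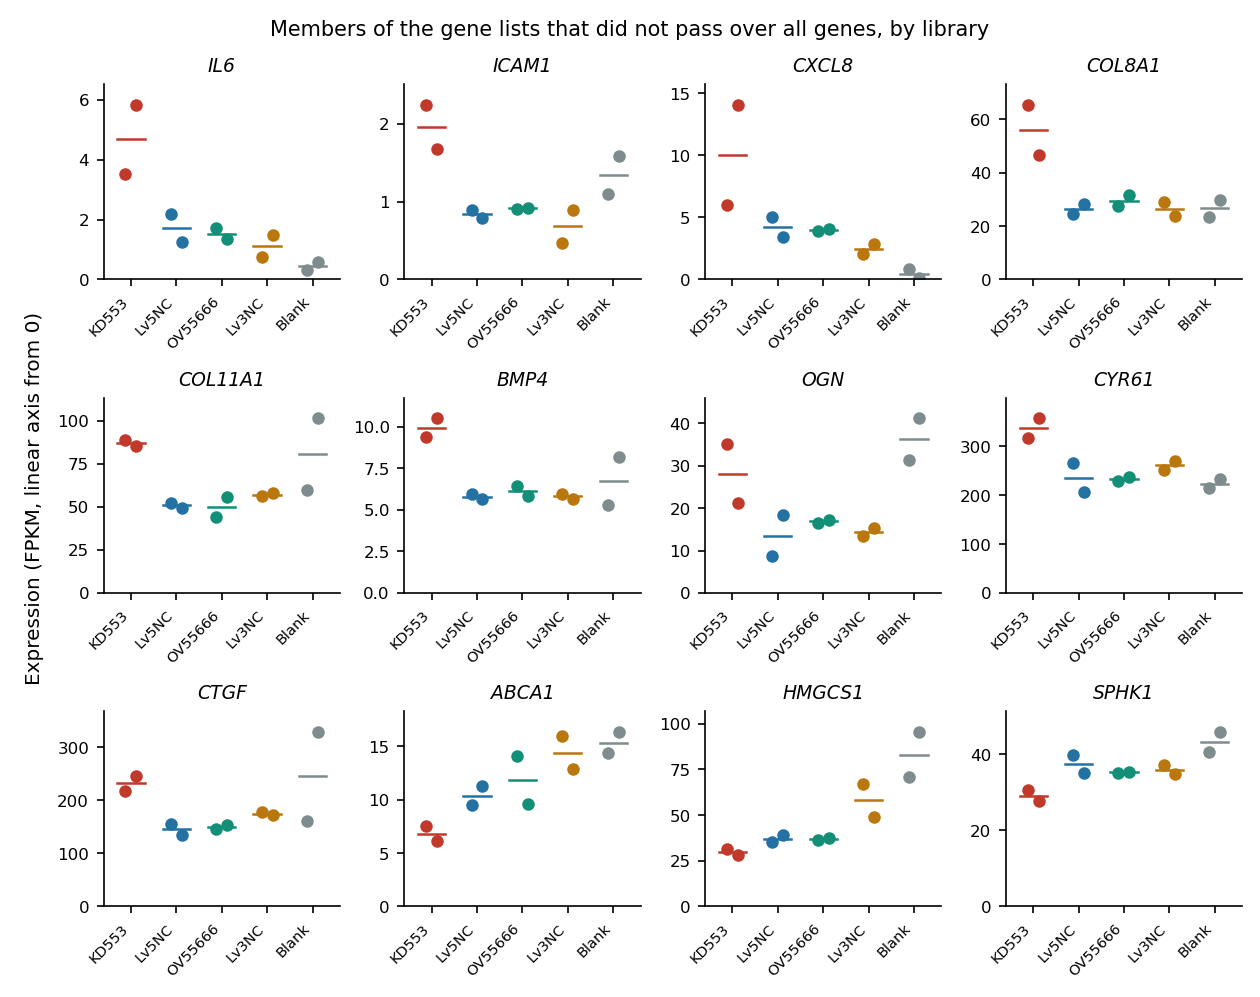
FPKM (linear axis from 0) of 12 members of the gene lists in each library, with a line at each group mean; none of them passed the test over all genes. IL6, CXCL8, COL8A1, BMP4 and CYR61 are highest in both KD553 libraries, while COL11A1, OGN and CTGF are as high in a Blank library, and ABCA1, HMGCS1 and SPHK1 are lowest in KD553.

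Milk and lactation genes gave no call. SPP1, a secreted phosphoprotein also found in milk, was at 9.03 and 14.6 FPKM in KD553 and 13.9 to 21.4 in the 4 libraries, which overlap (log2 −0.58 ± 0.17, SE, adjusted p = 0.351). MFGE8, a protein of the milk fat globule membrane, was at 112 and 117 against 106 to 114, and XDH at 1.84 and 1.00 against 0.95 to 1.69. Of the prolactin and STAT5 list 5 of 13 were higher (median −0.02), with ESR1, the oestrogen receptor, at 11.1 and 12.03 FPKM against 8.77 to 9.56 (log2 0.31 ± 0.11, adjusted p = 0.420), JAK2 at 11.7 and 13.4 against 10.4 to 11.5 and IGFBP5 at 46.7 and 8.54 against 35.6 to 65.6. The 2 KD553 libraries lay far apart in IGFBP5. AKT1, STAT3 and SOCS2 overlapped the 4 libraries.

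Cell cycle genes showed the widest gap between the 2 KD553 libraries, with list medians of −0.23 and 0.24 against the mean of the 4 libraries, which themselves ran from −0.13 to 0.29. Of 41 tested members 20 were higher and 21 lower, with 0 called. MCM7, a replication helicase subunit, was at 20.3 and 25.03 FPKM in KD553 against 22.9 to 32.7, UBE2C at 9.58 and 12.95 against 10.6 to 16.3 and CCNE2 at 2.14 and 2.15 against 1.35 to 1.98 (adjusted p = 0.626, 0.687 and 0.632). TYMS, CCND1 and RRM2, the other members with high means, overlapped the 4 libraries.

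The remaining pathway lists had medians between −0.06 and 0.10 and 0 called members. Immediate early genes were higher in 19 of 24, with a median of 0.10, where 55.1% of all tested genes were higher. None was clear of the 4 libraries, where 13.4% of all tested genes were clear above and 8.67% below. Among them JUNB was at 103 and 118 FPKM against 90.5 to 105 and MYC at 25.7 and 30.1 against 19.1 to 26.1. NRF2 antioxidant targets were higher in 16 of 21 (median 0.06), with GSR at 18.21 and 17.00 against 14.14 to 16.96 and ME1 at 34.7 and 35.3 against 30.3 to 33.0 (adjusted p = 0.515 and 0.461). Hypoxia targets were higher in 12 of 21 (median 0.08); ADM, a vasoactive peptide, was at 34.9 and 27.7 against 16.1 to 19.96 (log2 0.77 ± 0.23, SE, adjusted p = 0.370), with 48.7 in 1 Blank library, and LOX, which cross-links collagen, at 203 and 207 against 160 to 181 (adjusted p = 0.461). Among TGF-beta and BMP genes 14 of 26 were higher (median 0.03), with SMAD4 at 12.7 and 12.7 against 14.2 to 15.01 (log2 −0.19, adjusted p = 0.360). In the Wnt list 7 of 14 were higher, with the receptor gene FZD8 at 6.69 and 5.11 against 2.94 to 4.38 (log2 0.53 ± 0.14, adjusted p = 0.278). Among matrix remodelling genes 7 of 19 were higher, with the inhibitor TIMP3 at 11.2 and 10.9 against 7.96 to 8.96 (log2 0.35 ± 0.09, adjusted p = 0.278). Among p53 targets 12 of 21 were higher, with GADD45B at 5.30 and 5.16 against 5.57 to 9.18 and MDM2 at 16.5 and 14.3 against 13.02 to 14.03. Oxidative phosphorylation (7 of 19 higher), glycolysis (8 of 19) and the unfolded protein and ATF4 list (11 of 25) had medians of −0.06, −0.03 and −0.04.

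Markers of other cell types were also summed. The summed basal and myoepithelial markers were 1974 to 2080 FPKM in KD553, 1517 to 1981 in the 4 libraries, 1682 to 1851 in Lv3NC and 1877 to 3088 in Blank. They were made up of ACTA2, TAGLN, MYLK and CNN1, with KRT14 and TP63 at most 0.09 and 0.05. The 10 endothelial markers summed to 45.7 to 46.8 FPKM against 39.2 to 42.2, carried by ERG (29.6 and 31.5 against 25.4 to 28.9) and EGFL7 (15.9 and 15.2 against 12.2 to 13.6), while PECAM1 and CDH5 were at most 0.09 and 0.03. The 7 adipocyte markers summed to 6.98 to 7.81 against 4.97 to 6.94, carried by CIDEC. No marker gene was called.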

How the data were processed

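Sample titles put the 10 libraries in 5 groups of 2. Titles and descriptions number the KD553 samples differently, so both KD553 columns were used without a number. The authors deposited FPKM values (fragments scaled to transcript length and to the mapped total) for 17197 genes, per the file headers. Which aligner, counter and build they used is not given in the sources used here. FPKM keep no read depth, and scaling by the mapped total makes levels relative. Of the gene identifiers 16658 matched the RefSeq table for ARS1.2, used for symbols and gene neighbours.

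Values were analysed as log2(FPKM + 1), a pseudocount of 1, for the 11340 genes that reached 1 FPKM in 2 or more libraries; fold changes on this scale understate changes of low genes. limma 3.58.1 in R 4.3.3 (trend and robust options, two-sided) fitted a mean for each of the 5 groups with 5 residual degrees of freedom. The contrast was KD553 minus the mean of the Lv5NC and OV55666 means. No label ties a group's libraries to separate cultures or animals, and p-values then reflect only how these libraries vary, which may be technical. The fit was also run on 5 draws of simulated data with 200 changed genes. It recovered 96.8% of changes of log2 1 and 72.2% of changes of log2 0.5, with a mean of 11 wrong calls. The simulated libraries varied independently, whereas the real libraries of different groups varied together, so these rates may not hold for the real data. The Benjamini-Hochberg cut-off also loosens as more genes pass, and 200 changed genes made it looser than in the real data with 11 calls. The recovery rates therefore do not describe the real comparison, and the wrong calls do not estimate how many of its 11 genes are wrong.

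The comparison, the 28 pathway lists and the 7 marker lists were chosen with earlier results of these data known, and lists are described by counts and medians with no test. Named were up to 15 called genes in each direction that were clear of the 4 libraries, filled to 8 by p among uncalled genes with a mean of at least 2 FPKM in the higher group; every called member of a list, or the 3 of smallest p; and up to 4 members by level in 4 lists. Not every gene the rule takes is reported. Genes named outside it are marked. Alternatives covered the pseudocount, the filter, the scaling, the moderation, the libraries and controls in the fit, the replicate number and leaving out, in turn, each library of the groups a comparison sets side by side. In the fit of the main comparison, only the second Blank library was left out singly among the libraries outside that comparison.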

Additional observations from a re-analysis of the deposited data

How the results depend on the processing

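The 11 called genes kept their direction under every alternative run. The count of KD553 against Lv5NC and OV55666 was 2 with no filter on low values, 6 when Lv3NC and Blank stayed out of the fit (4 of the 11 among them), 2 against Lv5NC, 1 against OV55666, 286 against Blank, 17 without the second Blank library, and 0 to 3 with each of the 6 libraries compared left out, where a lone library is assumed to vary like the others; under the 7 other alternatives without a block it was 9 to 14. HSPB6 passed in 16 of 18 alternatives that kept the 4 libraries as control (adjusted p 0.00133 to 0.0884, lost without either KD553 library), GSPT1 in 12 (0.00281 to 0.123) and WISP2 in 4 of 17 (0.0140 to 0.378). KD553 against Lv3NC gave 8 genes, 0 in a limma fit of these groups alone (859 at an unadjusted p under 0.05), and 0 to 3 with each of these 4 libraries left out (0 without the first or the second KD553 library, with 714 and 962 at an unadjusted p under 0.05). Lv3NC against Lv5NC and OV55666 gave 0 except 1, an unannotated gene, with no filter.

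The column numbers were not taken to pair the libraries, since no label says that they mark a shared culture or day. Deviations of the first libraries from their group means correlated at 0.50 between Lv5NC and OV55666 and at 0.44 between KD553 and Lv3NC, but at −0.62 and −0.43 between KD553 and the former and at −0.46 and −0.38 between Lv3NC and the former. A negative value means that the first library of 1 group went with the second library of the other. The main fit left this shared variation in its estimate of spread. With the column number as a replicate block the count was 1 and for KD553 against Lv3NC 1. With the KD553 numbers exchanged the replicate block gave 7 and 5, and with those of KD553 and Lv3NC exchanged, an alternative chosen after seeing the data like the fit without the second Blank library, 18 (all 11 among them, and COL8A1 with an adjusted p of 0.00376) and 13. The number of libraries limits every comparison to differences large beside the spread of 2 libraries a group.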

Other observations

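Some of the largest differences of KD553 from the Lv5NC and OV55666 libraries did not pass the test, and these genes were picked after their values were seen. TNFRSF11B, a decoy receptor that holds back osteoclast formation, was at 4.05 and 11.03 FPKM in KD553 against 1.38 to 3.85 in the 4 libraries (adjusted p = 0.429). In Lv3NC it was at 1.59 and 4.09, which overlaps KD553. The chemokine gene CCL17 was at 40.1 and 80.3 against 16.4 to 38.4, with 35.0 in 1 Lv3NC library (adjusted p = 0.588). OXT, which codes for the precursor of oxytocin, was at 3.72 and 2.37 FPKM in KD553, 6.70 to 8.84 in the 4 libraries, 3.92 and 10.6 in Lv3NC and 10.01 and 9.89 in Blank (log2 −1.11 ± 0.31, SE, adjusted p = 0.334). EEF1A2, a tissue-restricted elongation factor, was at 14.0 and 2.19 against 7.23 to 28.0 (adjusted p = 0.717).

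A few more genes passed only in another fit and were also picked after their values were seen. CEMIP, a hyaluronan-degrading protein, was at 148.05 FPKM in each KD553 library against 68.1 to 81.3 in the 4 libraries and 78.6 and 64.1 in Lv3NC, and the feedback inhibitor of EGF receptors ERRFI1 was at 78.2 and 72.8 against 42.3 to 46.5. Both passed in a limma fit of only the KD553, Lv5NC and OV55666 libraries (adjusted p = 0.0470 for each). In Blank, CEMIP was at 59.1 and 100 FPKM and ERRFI1 at 29.9 and 50.6. DPP4, a surface peptidase of fibroblast progenitors, was at 1.36 and 1.40 against 0.26 to 0.68 and passed without the trend and robust options (adjusted p = 0.0350). TGFA, an EGF receptor ligand, was at 21.6 and 18.2 against 11.6 to 15.1, and at 14.2 and 15.1 in Blank. By limma TGFA passed with the replicate block and the KD553 and Lv3NC numbers exchanged (adjusted p = 0.0341). That alternative was chosen after seeing the data, and in the main fit the adjusted p was 0.203.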
